A study of Caenorhabditis elegans with 12 samples.

Results

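*C. elegans* larvae that lacked *mir-71* and grew on azide were set against wild-type larvae that grew on water. The first group is strain MT12993, the *mir-71(n4115)* deletion, raised on OP50 lawns treated with sodium azide. The second is strain N2, raised on OP50 lawns treated with water. Each group has 3 libraries, so the comparison uses 6 of the 12 libraries of the series, picked by the genotype and treatment in the sample labels. By the paper's methods, synchronised animals were collected whole at the L4 stage and the replicates were biological. The sources used here do not give the azide dose of the RNA-seq cultures, and the deletion is represented by a single strain with no rescued line among the libraries. Genotype and treatment both differ between the groups, so what the deletion contributed and what azide contributed cannot be told apart. The question addressed is which transcripts of the treated deletion stood at the level of untreated wild type and which did not.

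Sodium azide blocks cytochrome c oxidase, complex IV of the respiratory chain. *C. elegans* answers mitochondrial stress with the mitochondrial unfolded protein response (UPRmt), which raises chaperones such as HSP-6 under the control of ATFS-1 and DVE-1, while the hypoxia factor HIF-1 drives genes for sulfide and redox metabolism. miR-71 is a microRNA, a short RNA that lowers the output of mRNAs carrying matching sites. L4 larvae prepare the last molt, switch the germline towards oocytes and have not yet begun the heavy yolk synthesis of the adult, so transcripts of the cuticle, the germline and yolk change quickly at this age.

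Library totals ran between 16828108 and 21104085 counts in the deletion on azide and between 21062880 and 22831886 in wild type on water. The groups lay apart on the first principal component of the 6 libraries (54.3% of the variance). The second (21.6%) set replicate 3 of the deletion on azide apart, at -53.6 against 44.9 and 24.2 for its partners, so counts that rest on it are also given without it. In what follows A1, A2 and A3 stand for replicates 1 to 3 of the deletion on azide and W1, W2 and W3 for those of wild type on water, and a call is said to be lost without a library where a fit that left it out no longer passed. Markers of every tissue examined were detected: 38 of 40 neuronal, 9 of 12 glial, 25 of 25 body wall muscle, 10 of 10 pharyngeal, 17 of 17 intestinal and 14 of 14 hypodermal markers passed the filter on low counts. Mature miR-71 was not measured. The gene at its locus, *ppfr-1*, which hosts *mir-71* and encodes a regulatory subunit of protein phosphatase 4, spans positions 9364777 to 9389982 of chromosome I, minus strand (build WBcel235). It stood at 541, 549 and 796 CPM (reads per 1e6 counted, with libraries scaled by TMM) in the deletion on azide, against 104, 106 and 98.7 CPM in wild type on water. The groups did not overlap, and the transcript rose by a log2 fold change of 2.61 (SE 0.136, edgeR adjusted p = 4.69e-08).

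Of 15048 genes tested with edgeR's quasi-likelihood test, 2050 were called higher in the deletion on azide (13.6%) and 1918 lower (12.7%) at a Benjamini-Hochberg adjusted p below 0.05. When a log2 fold change of 1 or more in size was also required, 800 were higher and 686 lower. Without W1 or W3, 1218 or 1236 genes were called higher, and edgeR on the 6 libraries alone called 1081 higher and 1214 lower. A second test asked the opposite question. A gene was called held when its fold change was shown to lie within 1.5-fold in either direction, by a pair of one-sided tests at the same adjusted threshold, and 3758 genes passed (25.0%), or 2431 without W3. Of these, 3537 were held and not called changed, while 80 held genes also passed the test for a rise and 141 that for a fall, with differences inside the margin. A further 7543 genes (50.1%) passed neither test and remain undecided at this depth and replication. The libraries of the groups did not overlap for 6035 genes (40.1%), a share against which such separations below have to be read. Counts of called or held genes in the lists below are likewise to be read against the shares over all genes given above. The median log2 fold change over all tested genes was 0.04, with quartiles of -0.30 and 0.38. Scaling decided the balance of the calls. TMM gave 51.7% of calls as higher, whereas centring each library on its ribosomal protein genes gave 5250 higher and 712 lower genes (88.1% higher), centring on neuron markers gave 1443 and 769 (65.2%) and centring on body wall muscle markers gave 695 and 1060 (39.6%). The genes called held numbered 1127, 0 and 0 under these centrings, so the held calls below depend on the scaling. The all-gene median stood at 0.381, 0.148 and -0.035, and fold changes below are relative to the TMM scale.

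**Figure D1:**
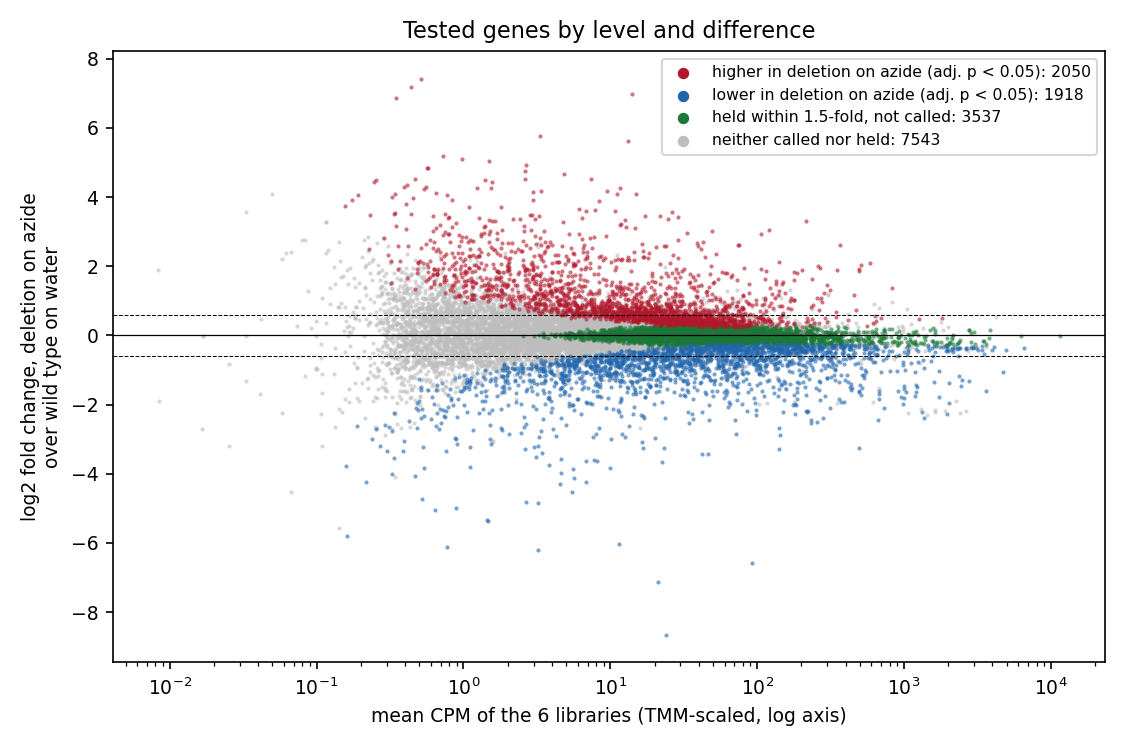
Log2 fold change of each tested gene (deletion on azide over wild type on water, vertical axis) against its mean CPM in the 6 libraries (log axis), coloured as higher, lower, held within 1.5-fold or neither. Held genes gather at high levels around 0, and the 7543 undecided genes fill the low levels.

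Whether a gene could be called held depended on its level. None of the 1736 genes with a mean below 1 CPM was held, 3.8% of the 5059 genes from 1 to 10 CPM were, 41.2% of the 6570 genes from 10 to 100 CPM and 51.1% of the 1683 genes at 100 CPM or more. The balance of rises and falls also turned with level. From 10 to 100 CPM, 17.3% of genes were higher and 13.4% lower, whereas among genes at 100 CPM or more 6.6% were higher and 32.4% lower, with a median log2 fold change of -0.165 that moved with the scaling given above.

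The 10 genes most firmly held had levels between 46.5 and 338 CPM in all 6 libraries. The dynein intermediate chain gene *dyci-1*, which serves transport along microtubules, stood at 94.9, 88.6 and 93.4 CPM in the deletion on azide, against 90.0, 94.4 and 97.8 CPM in wild type on water. The ranges overlapped, and the log2 fold change was -0.03 (SE 0.0757) with an edgeR adjusted p of 0.00131 for being held. The same adjusted p was reached by *C28H8.3*, *Y57G11C.3*, *dpf-5*, *golg-2*, *unc-45*, *T20B12.7*, *drap-1*, *F46B6.6* and *T10B5.3*. *unc-45*, the chaperone that folds muscle myosin, stood at 77.1, 83.7 and 83.2 CPM in the deletion on azide, against 82.4, 82.6 and 78.8 CPM in wild type on water.

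**Figure D2:**
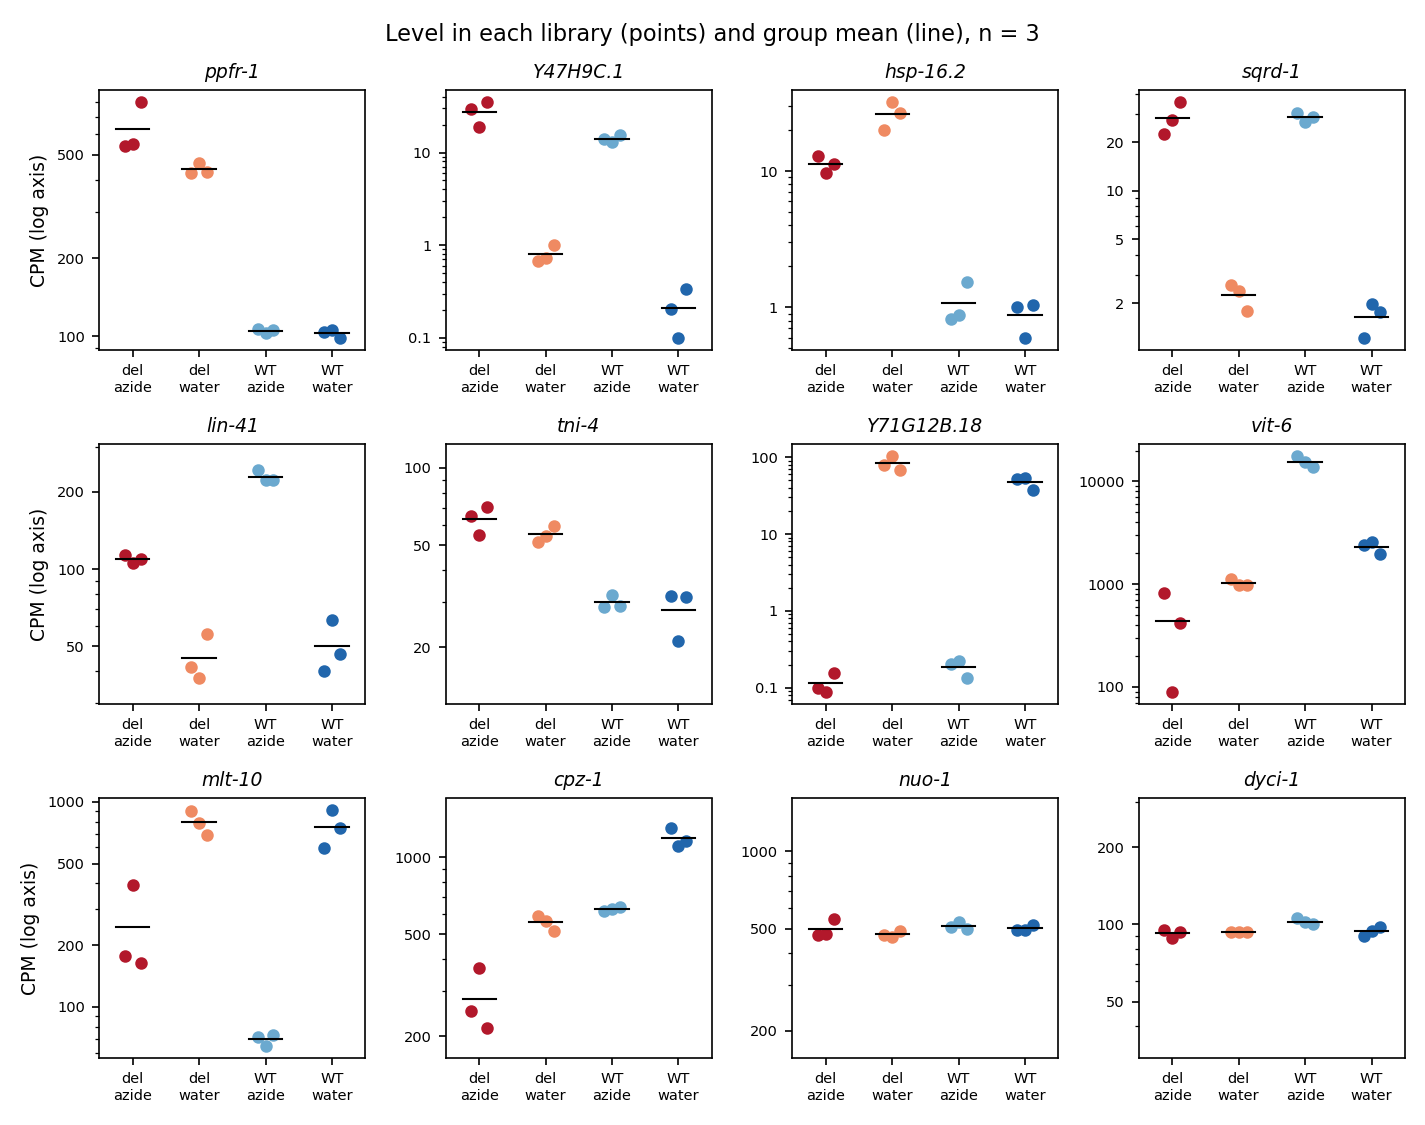
CPM (log axes that differ between panels) of 12 genes in each library, with points for the 3 libraries and a line at the mean of each group: del is the *mir-71* deletion and WT is wild type. *ppfr-1* is high in both groups of the deletion, *sqrd-1* in both groups on azide, *vit-6* is lowest in the deletion on azide at 89.4 to 823 CPM, and *nuo-1* and *dyci-1* lie level in all groups.

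Mitochondrial stress genes stood above untreated wild type in part. Of 15 tested UPRmt genes, 6 were higher, 1 lower and 3 held (backgrounds 13.6%, 12.7% and 25.0%), with a median log2 fold change of 0.33 against 0.04 over all genes. *hsp-6*, the mitochondrial Hsp70 and the usual reporter of this response, stood at 618, 786 and 795 CPM in the deletion on azide, against 501, 588 and 568 CPM in wild type on water. Its groups did not overlap, and it rose by a log2 fold change of 0.41 (SE 0.125, edgeR adjusted p = 0.028). The deletion on water averaged 498 CPM and wild type on azide 910 CPM. Wild type on water is the shared reference of these groups, and differences among the other groups were not tested here. *dnj-10*, a mitochondrial DnaJ co-chaperone, stood at 54.9, 53.4 and 57.5 CPM against 30.9, 37.1 and 35.7 CPM (log2 fold change 0.68, SE 0.0903, edgeR adjusted p = 0.000156). *met-2*, a histone methyltransferase that acts in the response together with its partner *lin-65*, stood at 82.6, 73.1 and 61.8 CPM against 41.0, 49.1 and 43.2 CPM (0.71, SE 0.113, edgeR adjusted p = 0.000622), and *lin-65* rose by 0.54. None of these 3 genes overlapped between the groups. The chaperonin *hsp-60* was held, at 692, 905 and 951 CPM in the deletion on azide against 649, 802 and 766 CPM in wild type on water, as were the proteases *clpp-1* and *lonp-1*. The ubiquitin-like gene *ubl-5*, a partner of DVE-1, fell to 11.4, 14.0 and 13.3 CPM in the deletion on azide, against 19.2, 14.5 and 20.2 CPM in wild type on water (log2 fold change -0.48, edgeR adjusted p = 0.045). Single libraries mattered for this list, which had 3 higher genes without A3, W1 or W3 and 6 held genes without A3 or 5 without W1, and 2 lower without A3. Scaling mattered too, with 1 higher gene when libraries were centred on muscle markers and 4 on neuron markers. Centred on ribosomal protein genes, 12 were higher and the median was 0.66. The calls of *dnj-10* and *met-2* were kept whichever of the 6 libraries was left out. Those of *hsp-6* were lost without A2, A3, W1 or W3, of *lin-65* without A1, A3, W1 or W3, of *ubl-5* without A1, A2, W1 or W3 and of *hsp-60* as held without A1, A2, W2 or W3.

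HIF-1 response genes stood further above untreated wild type. Of 12 tested, 8 were higher, 2 lower and 1 held, with a median log2 fold change of 1.08. *sqrd-1*, the sulfide:quinone oxidoreductase that clears hydrogen sulfide in mitochondria, stood at 22.4, 27.5 and 35.5 CPM in the deletion on azide, against 1.22, 1.99 and 1.75 CPM in wild type on water. Every treated library lay far above every untreated one (log2 fold change 4.10, SE 0.226, edgeR adjusted p = 8.41e-08), and the deletion on water averaged 2.25 CPM and wild type on azide 28.6 CPM. The glutathione transferase gene *gst-19* stood at 5.74, 4.83 and 6.10 CPM against 0.456, 0.347 and 0.284 CPM (3.92, edgeR adjusted p = 3.5e-06). The nuclear receptor gene *nhr-57*, a standard HIF-1 reporter, stood at 14.8, 16.0 and 22.1 CPM against 4.10, 4.42 and 3.22 CPM (2.17, edgeR adjusted p = 1.08e-05). Neither gene overlapped between the groups. The 2 lower members were *hif-1* itself, at 186, 240 and 290 CPM in the deletion on azide against 323, 301 and 305 CPM in wild type on water (-0.38, edgeR adjusted p = 0.0466), and the collagen prolyl hydroxylase gene *phy-2* (-0.34, edgeR adjusted p = 0.043), which turned positive on the ribosomal scale. The sulfhydrylase-family gene *cysl-1*, an upstream activator of HIF-1, was held. The median of the list was above 0 under all scalings tried, and 6 to 8 members were higher whichever of the 6 libraries was left out. The calls of both lower members were lost without A1, W1, W2 or W3, that of *hif-1* also without A2 and that of *phy-2* without A3.

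Antioxidant genes split between a raised and a held group. Of 15 tested, 5 were higher and 8 were held, 1 of these also called higher. Over all genes 13.6% were higher and 25.0% held. The held share was 41.2% from 10 to 100 CPM and 51.1% at 100 CPM or more. *gst-4*, a glutathione transferase gene driven by SKN-1, stood at 49.8, 60.0 and 52.2 CPM in the deletion on azide, against 16.6, 14.5 and 16.4 CPM in wild type on water (log2 fold change 1.77, SE 0.125, edgeR adjusted p = 8.05e-07). The catalase gene *ctl-1* stood at 59.5, 65.5 and 81.1 CPM against 25.3, 27.7 and 24.2 CPM (1.42, edgeR adjusted p = 2.5e-06), and the mitochondrial superoxide dismutase gene *sod-3* at 5.19, 3.91 and 5.64 CPM against 1.82, 1.54 and 1.90 CPM (1.48, edgeR adjusted p = 0.00214). None of the 3 overlapped between the groups, and their calls were kept whichever library was left out. The peroxiredoxin genes *prdx-2* and *prdx-3* and the thioredoxin reductase gene *trxr-1* were held, *prdx-2* at 896, 881 and 950 CPM in the deletion on azide against 876, 835 and 870 CPM in wild type on water.

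Small heat shock genes of the *hsp-16* group stood above untreated wild type, although few reads support some of them, and *hsp-12.3* stood below. Of 6 tested heat shock genes, 3 were higher and 1 lower in the full set of libraries, and 2 were lower without A3. *hsp-16.2*, a cytosolic small chaperone on chromosome V from 1804441 to 1804924, stood at 12.8, 9.75 and 11.2 CPM in the deletion on azide, against 1.01, 0.595 and 1.04 CPM in wild type on water (3.66, SE 0.287, edgeR adjusted p = 1.67e-06). Its neighbour *hsp-16.41* stood at 5.74, 5.36 and 4.31 CPM against 0.304, 0.0496 and 0.142 CPM (4.92, SE 0.472, edgeR adjusted p = 1.01e-05). Neither gene overlapped between the groups, and both were higher still in the deletion on water, with means of 26.3 and 9.03 CPM, while wild type on azide averaged 1.08 and 0.41 CPM. *hsp-16.11* had 9, 24 and 7 reads in the deletion on azide and 1 read in each library of wild type on water, a depth-scaled ratio of 13.1 with an exact 95% interval of 4.16 to 66.0 that covers counting error only. Some *hsp-16* genes are near-identical copies of each other, so reads of those may be lost or misassigned. The small heat shock gene *hsp-12.3* went the other way, at 2.30, 2.11 and 2.15 CPM in the deletion on azide against 10.7, 8.48 and 7.25 CPM in wild type on water (-2.01, SE 0.234, edgeR adjusted p = 5.34e-05), and *hsp-12.6*, kept in another list, fell by 1.57 on the log2 scale, a call lost without any one of the 6 libraries.

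The machinery of respiration and of mitochondrial translation mostly stayed within 1.5-fold of untreated wild type. Held counts here have to be read by level: 25.0% of all genes were held, but 41.2% from 10 to 100 CPM and 51.1% at 100 CPM or more. Of 29 nuclear-encoded genes of the respiratory chain and ATP synthase, 26 were held, and the list median was -0.06 on the log2 scale. edgeR called 0 of them higher and 0 lower, an unadjusted p below 0.05 gave 0 higher and 1 lower, DESeq2 on all 12 libraries gave 0 and 1, and DESeq2 on the 6 libraries gave 0 and 0. Without A3 there were 4 lower genes and without W2 there was 1. *nuo-1*, a complex I subunit gene, stood at 471, 478 and 546 CPM in the deletion on azide, against 496, 494 and 515 CPM in wild type on water, and *nduf-6*, another complex I subunit gene, at 98.5, 100.2 and 102.1 CPM against 103, 92.2 and 105 CPM. Both ranges overlapped, and *nuo-2* was held as firmly. Of 66 mitochondrial ribosomal protein genes, 59 were held, 1 was called higher (*mrps-30*, log2 fold change 0.29) and 2 lower (*mrps-23*, -0.40, and *mrps-12*, -0.28, which turned positive on the ribosomal scale), and each of these 3 calls was lost in at least 4 of the 6 fits that left out a library. The medians of both lists were positive on the ribosomal scale, at 0.28 and 0.30, where 18 respiratory and 25 mitochondrial ribosomal genes counted as higher and 13 and 8 as held.

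Genes of endoplasmic reticulum stress, autophagy and body wall muscle were likewise mostly held on the TMM scale. These counts are to be read against 25.0% held over all genes. The held share was 41.2% from 10 to 100 CPM and 51.1% at 100 CPM or more. Of 12 endoplasmic reticulum stress genes, 9 were held, among them the chaperone genes *dnj-7*, *enpl-1* and *pdi-6*. The choline kinase gene *ckb-2* rose by 0.51 (edgeR adjusted p = 0.0468), and the disulfide isomerase gene *pdi-2*, which serves collagen hydroxylation, was called lower at 2279, 3503 and 2808 CPM in the deletion on azide against 3456, 4737 and 4183 CPM in wild type on water (-0.53, edgeR adjusted p = 0.0206), with ranges that overlapped. Both calls were lost without A1, W2 or W3, and that of *ckb-2* also without A2. Of 19 autophagy genes, 12 were held and 3 were higher. These were *lgg-2*, a LC3 homolog, at 38.7, 35.9 and 40.5 CPM against 30.2, 25.0 and 27.5 CPM (0.47, edgeR adjusted p = 0.00685), the adaptor gene *epg-2* (0.79) and *atg-13* of the initiation complex (0.53), while the conjugation genes *atg-3* and *atg-7* were held. Of 25 body wall muscle markers, 15 were held and 1, the titin gene *ttn-1*, was higher (0.87, edgeR adjusted p = 0.0369), a call lost without A1, A3, W1 or W3. The number of held muscle markers was 8 without A2, W2 or W3. On the ribosomal scale the higher genes numbered 8 for endoplasmic reticulum stress, 13 for autophagy and 15 for body wall muscle. There 3, 0 and 3 genes of these lists were held. In whole animals, fewer cells of a type and less RNA per cell cannot be told apart.

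**Figure D3:**
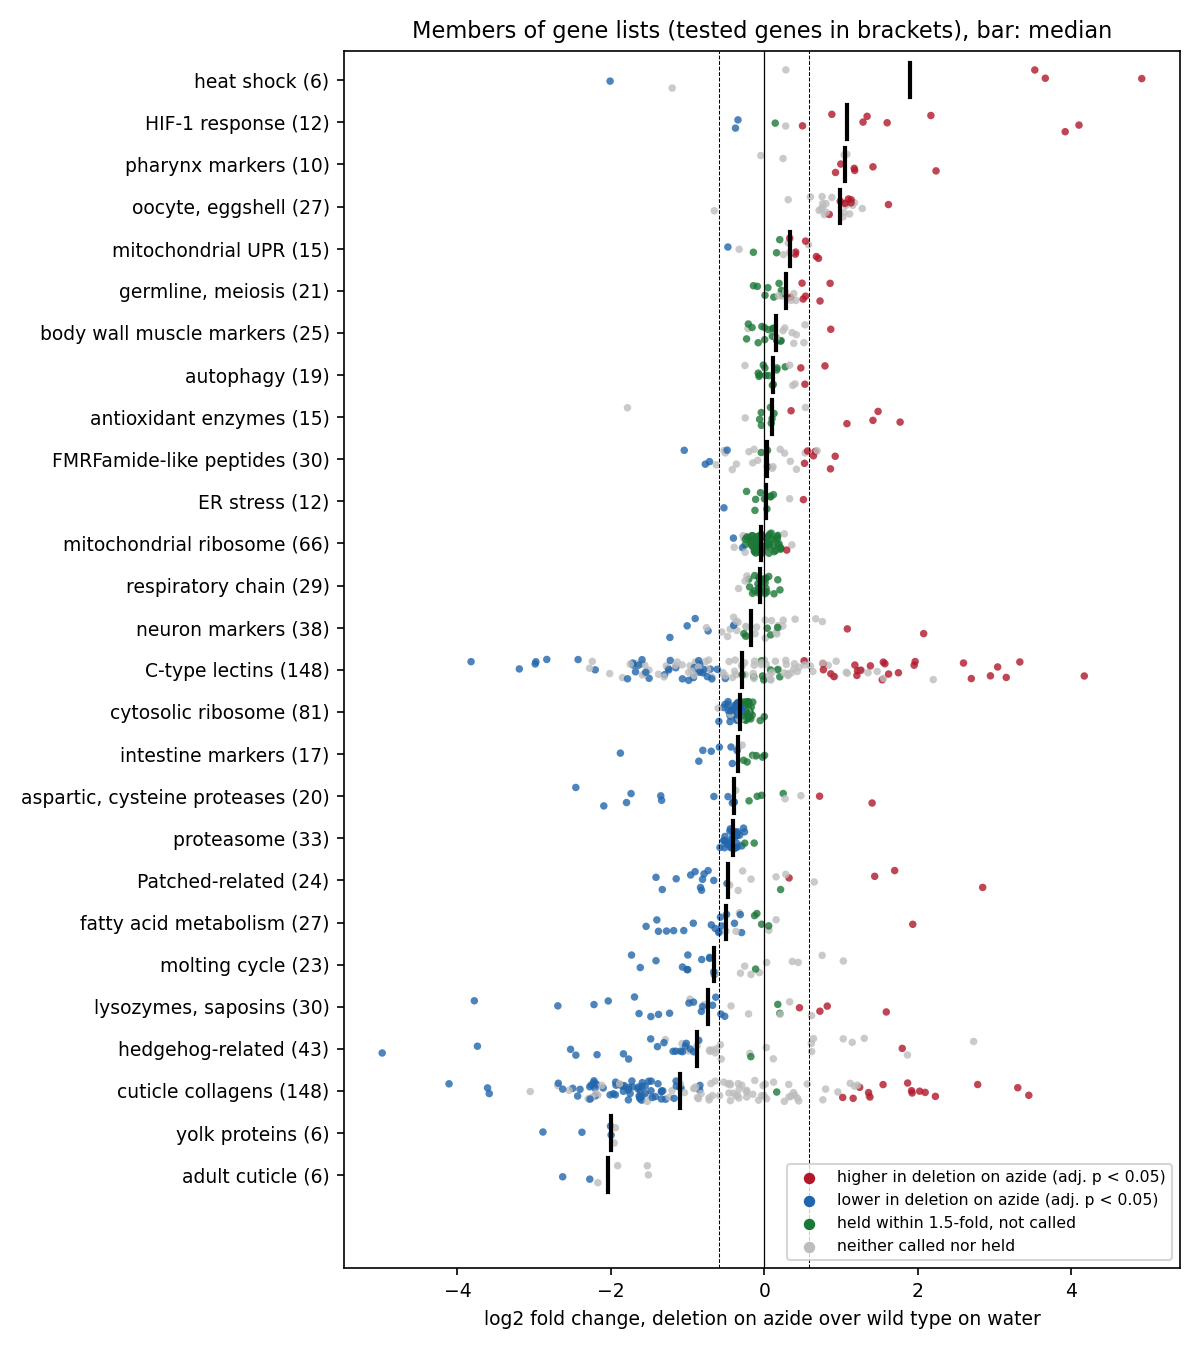
Log2 fold change (deletion on azide over wild type on water) of each tested member of 27 gene lists, coloured by call, with a bar at the list median and the number of tested genes in brackets. Cuticle, yolk and hedgehog-related genes lie to the left and HIF-1 and pharynx genes to the right under all scalings tried. On the TMM scale the ribosome and proteasome lie left, by medians of -0.31 and -0.41. These go to 0.02 and -0.06 on the ribosomal scale, the first by construction.

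Cytosolic ribosome and proteasome transcripts were lower by small and even amounts on the TMM scale. The proteasome list stood level on the ribosomal scale, where the ribosomal list is level by construction. All 33 proteasome genes had a log2 fold change below 0 on the TMM scale, 31 were called lower and 10 were held, 8 of these also called lower, with a median of -0.41. *pbs-5*, a core subunit gene, stood at 233, 255 and 237 CPM in the deletion on azide, against 354, 360 and 369 CPM in wild type on water (-0.58, SE 0.0853, edgeR adjusted p = 0.00034). The core subunit genes *pas-4* and *pbs-1* also fell without overlap, by 0.53 each on the log2 scale, and the lid subunit gene *rpn-8*, which turned positive on the ribosomal scale, fell by 0.26 and was held. Of 81 cytosolic ribosomal protein genes, 36 were lower and 38 held on the TMM scale, with a median of -0.31. *rpl-41.2* stood at 1270, 1294 and 1231 CPM against 1988, 1621 and 2113 CPM (-0.59, SE 0.121, edgeR adjusted p = 0.00312), and *rpl-29* and *rps-28* fell by 0.53 and 0.51. *rpl-24.2*, which encodes a factor of ribosome assembly, was held, at 77.8, 76.3 and 84.5 CPM against 74.2, 79.4 and 85.1 CPM. These calls depended on the scaling: centred on the ribosomal genes the proteasome list had 0 lower and 30 held genes and a median of -0.06, and centred on neuron markers edgeR called 0 genes of either list lower, at medians of -0.22 for the ribosomal and -0.29 for the proteasome list. Centred on muscle markers the medians were -0.41 and -0.47, with 16 ribosomal and 3 proteasome genes lower. Leaving out a library gave 25 to 31 lower proteasome genes but, of ribosomal protein genes, 68 without A3, 18 without A1, 15 without A2, 17 without W2 and 8 without W3. The held ribosomal genes numbered 63 without A1, 18 without A3 or W1, 25 without W2 and 24 without W3. The number of held proteasome genes was 3 without A2 and 2 without W1 or W3, and *rpn-8* lost its call without A2, A3, W1, W2 or W3.

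Genes of the molting cycle were lower in the treated deletion. Of 23 tested, 12 were lower (background 12.7%) and 1 was held, with a median log2 fold change of -0.65. *mlt-10*, which is needed to shed the old cuticle, stood at 178, 393 and 163 CPM in the deletion on azide, against 594, 909 and 748 CPM in wild type on water (-1.62, SE 0.3, edgeR adjusted p = 0.00317). The zinc finger gene *bed-3* stood at 20.1, 39.4 and 26.1 CPM against 92.5, 101 and 90.8 CPM (-1.73, SE 0.231, edgeR adjusted p = 0.000309), and the Patched-related gene *ptr-18* at 62.6, 112 and 67.0 CPM against 218, 216 and 210 CPM (-1.41, SE 0.199, edgeR adjusted p = 0.000377). None of the 3 overlapped between the groups, and replicate 2 was the highest treated library for each. Their means were 794, 109.7 and 234 CPM in the deletion on water and 69.8, 16.1 and 35.3 CPM in wild type on azide. The transcription factor gene *myrf-1* was held, at 99.8, 136 and 140 CPM in the deletion on azide against 133, 139 and 135 CPM in wild type on water. Of 12 heterochronic genes, which time larval stages, *lin-42* (log2 fold change -0.65) and the Argonaute gene *alg-1* (-0.44) were lower, *lin-41* was higher, and *lin-28* and *daf-12* were held. Leaving out a library gave 11 to 14 lower genes of the molting cycle, while centring on neuron markers gave 6, and centring on ribosomal protein genes gave 8 lower and 3 higher with a median of -0.31. *myrf-1* lost its call as held without A2, A3, W1 or W3, *lin-42* its fall without A1 or W2, and *alg-1* without A1, W1, W2 or W3.

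Cuticle collagen transcripts were lower in sum and uneven gene by gene. Summed over the list they stood at 30240, 45140 and 43850 CPM in the deletion on azide, against 88100, 81780 and 85720 CPM in wild type on water, without overlap. Of 148 collagen genes tested, 62 were lower, 15 higher and 1 held, with a median log2 fold change of -1.10. *dpy-17* stood at 32.9, 33.4 and 28.6 CPM in the deletion on azide, against 2.43, 3.37 and 2.89 CPM in wild type on water (3.45, SE 0.205, edgeR adjusted p = 1.81e-07), with every treated library above every untreated one. *col-41* was led by A3, at 101, 80.8 and 995 CPM against 44.4, 28.0 and 46.9 CPM (3.30, SE 0.964, edgeR adjusted p = 0.033), and its call was lost without A3, W1, W2 or W3. *col-132* stood at 1.35, 0.439 and 0.0513 CPM against 21.9, 6.45 and 3.60 CPM (-4.11, SE 0.909, edgeR adjusted p = 0.00832), with untreated libraries that differed widely among themselves, and the deletion on water averaged 0.434 CPM. The adult cuticle genes, which are switched on for the last molt, summed to 1418, 2249 and 196 CPM in the deletion on azide, against 4713, 5207 and 4803 CPM in wild type on water. All 6 had log2 fold changes below 0 (median -2.04) and did not overlap between the groups, but 2 were called lower, *col-7* (-2.63) and *col-62* (-2.27). Without A2 or A3, 5 of them were lower, as they were by DESeq2, and without A1 there were 3, while edgeR on the 6 libraries alone called 0 and an unadjusted p below 0.05 passed all 6. Over all collagens, leaving out a library gave 51 to 83 lower genes and, without W1 or W2, 7 or 9 higher ones.

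Genes of hedgehog-related and of Patched-related proteins, many of them made by the epidermis with the molting rhythm, had more falls than rises. Of 43 hedgehog-related genes 19 were lower, 1 higher (*grd-13*, 1.80, lost without A3, W1 or W2) and 1 held (*wrt-5*, lost without A2, W2 or W3) (median log2 fold change -0.88), and of 24 Patched-related genes 12 were lower, 4 higher and 1 held (median -0.47). On the ribosomal scale the counts were 15 lower and 6 higher for the first list and 8 lower and 6 higher for the second. *wrt-4* stood at 50.6, 132 and 24.4 CPM in the deletion on azide, against 408, 398 and 386 CPM in wild type on water (-2.52, SE 0.496, edgeR adjusted p = 0.00529). *grd-11* stood at 0.299, 0.571 and 0.718 CPM against 6.69, 7.74 and 7.02 CPM (-3.74, SE 0.339, edgeR adjusted p = 6.42e-06). Neither overlapped between the groups. *ptr-22* went the other way, at 15.3, 11.5 and 13.7 CPM against 1.57, 1.14 and 2.89 CPM (2.85, edgeR adjusted p = 1.11e-05), and *ptr-8* and *ptr-13* also rose, by 1.70 and 1.44.

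Yolk and oocyte transcripts moved in opposite directions relative to untreated wild type. The 6 vitellogenin genes, which encode yolk proteins made in the intestine, summed to 2130, 238 and 1046 CPM in the deletion on azide, against 5088, 6191 and 4216 CPM in wild type on water. The sums were 2226 to 2548 CPM in the deletion on water and 34570 to 44400 CPM in wild type on azide. All 6 genes were below untreated wild type without overlap (log2 fold changes between -2.88 and -1.94), and 4 were called lower. *vit-6* stood at 823, 89.4 and 418 CPM against 2410, 2555 and 1948 CPM (-2.38, SE 0.598, edgeR adjusted p = 0.018), and *vit-3* at 67.1, 4.44 and 31.0 CPM against 235, 330 and 192 CPM (-2.88, SE 0.711, edgeR adjusted p = 0.0167). Libraries decided the count of calls: without A3, 1 vitellogenin gene was called lower, with *vit-3* and *vit-6* lost, without A2 all 6 were, and edgeR on the 6 libraries alone called 1. Some vitellogenin genes are close copies of each other, so reads of those may be lost or misassigned.

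Oocyte and eggshell genes summed to 4104, 2615 and 1428 CPM in the deletion on azide, against 1149, 1775 and 1285 CPM in wild type on water, so that replicate 3 lay within the untreated range. Of 27 tested, 8 were higher and the other 19 were undecided (median log2 fold change 0.99). Counts here are to be read against 13.6% higher, 12.7% lower and 25.0% held over all genes. From 10 to 100 CPM 41.2% of genes were held. Without A3, 26 were higher, without A1 or A2 there were 3, without W1 or W3 there were 2, and DESeq2 called 19. *lin-41*, a TRIM-NHL protein gene needed in growing oocytes, was the steadiest, at 113, 106 and 109 CPM in the deletion on azide against 40.1, 63.4 and 46.5 CPM in wild type on water (1.13, SE 0.163, edgeR adjusted p = 0.000307), and it averaged 45.1 CPM in the deletion on water and 229 CPM in wild type on azide. The eggshell proteoglycan gene *cpg-3* followed the replicates, at 191, 98.0 and 39.9 CPM against 31.3, 41.0 and 35.0 CPM (1.62, SE 0.429, edgeR adjusted p = 0.0209), its ranges overlapped and its call was lost without W1 or W3. Of 21 germline and meiosis genes 6 were higher and 8 held (median 0.28). The helicase gene *glh-2* of the germ granules was higher at 119, 100.4 and 59.2 CPM against 45.6, 56.1 and 52.4 CPM (0.86, edgeR adjusted p = 0.0191), as were the meiotic genes *spo-11* (0.73) and *syp-3* (0.54), while *gld-2*, *him-3* and *pgl-1* were held, the last not without W2 or W3. These 3 rises were each lost in 4 or 5 of the 6 fits that left out a library, the list had 1 higher gene without A1, 2 without A2 or W3 and 0 without W1, and its held genes numbered 5 without A2, 3 without W2 and 2 without W3. Of 50 sperm genes, 1 was higher (*ssp-37*, 2.04) and 1 lower (*msp-74*, -0.86, lost without A1, A3, W2 or W3), and without A3 the counts were 16 and 2. Of 23 genes of DNA replication and the cell cycle, 2 were higher, *orc-1* (0.49) and *orc-2* (0.42), whereas 13 were higher without A3, 6 without W2 and 0 without A1, A2, W1 or W3.

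**Figure D4:**
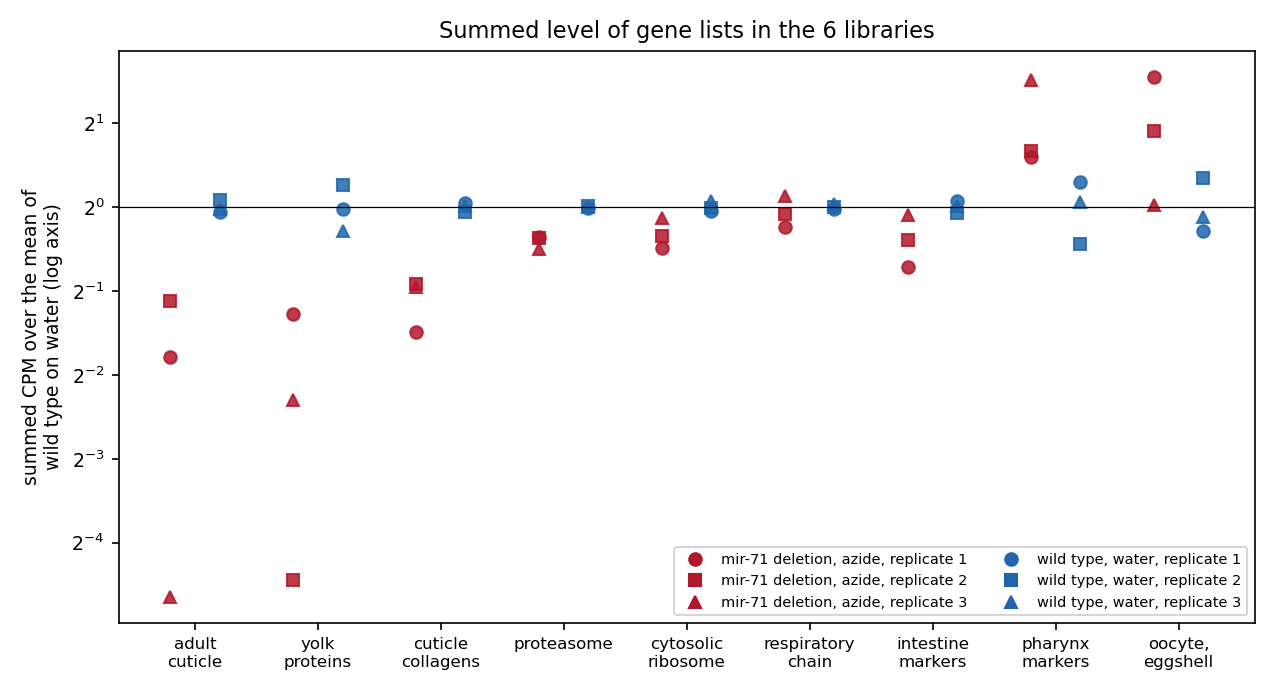
Summed CPM of 9 gene lists in each of the 6 libraries, divided by the mean sum of wild type on water (vertical log axis), with the deletion on azide left and wild type on water right in each pair and symbols for the replicates. On the TMM scale the treated libraries lie below the untreated ones for cuticle, yolk, proteasome, ribosome and intestinal genes and above them for pharynx genes. They scatter widely for adult cuticle, yolk and oocyte genes.

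Transcripts of the intestine and of lipid metabolism were mostly lower on the TMM scale. Of 17 intestinal markers 8 were lower and 6 held (3 without A3), with a median log2 fold change of -0.34 that went to -0.01 on the ribosomal scale. The ABC transporter gene *pgp-1* stood at 74.4, 55.4 and 65.8 CPM in the deletion on azide, against 292, 190.4 and 235 CPM in wild type on water (-1.88, SE 0.174, edgeR adjusted p = 1.08e-05), and the gut esterase gene *ges-1* fell by 0.85 on the log2 scale. The peptide transporter gene *pept-1* was held, at 277, 283 and 340 CPM against 308, 293 and 313 CPM. Among 20 aspartic and cysteine proteases 11 were lower, 2 higher and 4 held. The cathepsin gene *cpz-1* stood at 251, 369.9 and 215 CPM against 1300, 1107 and 1160 CPM (-2.09, SE 0.163, edgeR adjusted p = 1.63e-06), and *asp-8* at 16.6, 24.1 and 24.7 CPM against 139.9, 107 and 112 CPM (-2.46, SE 0.232, edgeR adjusted p = 2.46e-05). Both were far outside the untreated range, whereas the lysosomal protease gene *asp-3* was held and the cysteine protease gene *cpr-3* rose to 53.7, 48.2 and 51.8 CPM, against 20.0, 19.8 and 18.3 CPM (1.40, edgeR adjusted p = 8.44e-07). Of 30 lysozymes and saposin-like genes 17 were lower, 4 higher and 2 held (median -0.73). *ilys-5*, an invertebrate-type lysozyme gene, stood at 488, 523 and 398 CPM against 2377, 2032 and 2152 CPM (-2.22, SE 0.115, edgeR adjusted p = 4.69e-08), and *lys-2* at 181, 233 and 194 CPM against 68.9, 68.4 and 64.9 CPM (1.59, SE 0.112, edgeR adjusted p = 8.05e-07). The list changed in both directions, and the calls of all genes named here were kept whichever of the 6 libraries was left out.

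Of 27 genes of fatty acid synthesis and breakdown, 17 were lower, 1 higher and 6 held (median log2 fold change -0.50, and -0.15 on the ribosomal scale). The single rise was *acs-2*, an acyl-CoA synthetase gene of mitochondrial fatty acid oxidation, at 32.8, 37.8 and 63.5 CPM in the deletion on azide against 12.5, 8.88 and 13.7 CPM in wild type on water (1.93, SE 0.303, edgeR adjusted p = 0.00106). Its 3 libraries all lay above untreated wild type. *cpt-5*, a carnitine palmitoyltransferase gene, stood at 15.1, 16.1 and 15.9 CPM against 51.2, 44.2 and 42.0 CPM (-1.54, SE 0.165, edgeR adjusted p = 2.61e-05), and the desaturase gene *fat-5* at 26.2, 24.5 and 33.7 CPM against 72.4, 71.2 and 79.2 CPM (-1.40, SE 0.139, edgeR adjusted p = 1.49e-05). None of the 3 overlapped between the groups. The desaturase genes *fat-2* and *fat-4* and the elongase gene *elo-2*, which act on long and polyunsaturated chains, were held, *fat-2* at 869.8, 840.2 and 979.9 CPM against 928, 913 and 916 CPM.

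Pharynx genes were higher. Of 10 pharynx markers 6 were higher and the other 4 undecided, at a median of 1.06 on the log2 scale, and their sum was 514, 539 and 968 CPM in the deletion on azide against 418, 249.5 and 352 CPM in wild type on water. *tni-4*, a troponin I gene of the pharynx, stood at 65.0, 54.9 and 70.5 CPM against 31.7, 21.1 and 31.4 CPM (1.18, SE 0.147, edgeR adjusted p = 9.33e-05), and *marg-1* at 10.0, 7.56 and 16.9 CPM against 3.34, 1.69 and 2.27 CPM (2.24, SE 0.465, edgeR adjusted p = 0.00443). Neither overlapped between the groups. Leaving out a library gave 4 to 7 higher markers, and 1 was lower without A3. Of 38 neuron markers 2 were higher (1 without A3, W2 or W3), 5 lower (9 without A3) and 5 held (3 without A2, 2 without W2 or W3). Over all genes 13.6% were higher, 12.7% lower and 25.0% held, so the share of lower neuron markers was close to that of all genes. The touch neuron genes *mec-7* (a tubulin, log2 fold change -1.23), *mec-17* (a tubulin acetyltransferase, -1.01) and *mec-12* (a tubulin, -0.90) were lower, and the synaptic genes *snb-1* and *unc-64* were held. The octopamine synthesis gene *tbh-1* was higher at 63.5, 28.3 and 14.5 CPM in the deletion on azide against 8.05, 10.7 and 6.49 CPM in wild type on water (2.08, edgeR adjusted p = 0.00782). Its treated levels fell from A1 to A3, as did the oocyte and eggshell sum (4104, 2615 and 1428 CPM), and a link was not tested. The cells that express *tbh-1* were not resolved, and 17.0% of its exon bases lie under a gene of the opposite strand.

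Neuropeptide genes were called in both directions, counts to be read against 13.6% higher and 12.7% lower over all genes. Of 30 FMRFamide-like peptide genes 6 were higher, 4 lower and 3 held, and of 46 other neuropeptide genes 3 were higher, 7 lower and 3 held. The first list had 3 higher genes without W2, and 2 lower without A1, 7 without A3 and 1 without W1. The second had 1 higher gene without any library but A2, and 0 held without A2 or W3 and 5 without A3. *flp-1*, whose peptides control locomotion, stood at 23.6, 20.2 and 29.5 CPM in the deletion on azide, against 16.7, 12.5 and 17.0 CPM in wild type on water (log2 fold change 0.66, SE 0.193, edgeR adjusted p = 0.0221), while the deletion on water averaged 28.0 CPM and wild type on azide 5.96 CPM. *nlp-16* stood at 16.4, 16.8 and 19.8 CPM against 7.45, 10.0 and 8.53 CPM (1.03, SE 0.178, edgeR adjusted p = 0.0011). Both were separated between the groups, and *flp-1* lost its call without W2. *nlp-20* stood at 8.63, 15.2 and 17.9 CPM against 56.3, 38.0 and 43.7 CPM (-1.72, SE 0.267, edgeR adjusted p = 0.000789), and *flp-20* at 2.94, 3.82 and 5.08 CPM against 9.68, 6.55 and 8.20 CPM (-1.04, SE 0.285, edgeR adjusted p = 0.0165), the last lost without A1 or W1. Of 17 genes of peptide processing and dense-core vesicles 10 were held (6 without W2), among them *sbt-1*, a helper of the EGL-3 convertase, and *snap-29*, while *aex-5* and *kpc-1*, proprotein convertase genes, fell by 0.44 and 0.32 on the log2 scale, calls that were lost in 3 of the 6 fits that left out a library. Without A3, 6 genes of this list were lower, and without A1 edgeR called 0 of them lower. Of 24 insulin-like genes 2 were higher and 2 lower. *ins-35* stood at 20.4, 11.7 and 18.3 CPM in the deletion on azide, against 6.38, 7.84 and 5.31 CPM in wild type on water (1.36, SE 0.282, edgeR adjusted p = 0.00341), and averaged 7.37 CPM in the deletion on water and 2.20 CPM in wild type on azide, and its treated libraries lay above every other library of the series. In the insulin receptor pathway, *daf-16*, which encodes the FOXO factor, was held at 90.7, 86.0 and 105 CPM against 111, 104 and 102 CPM, as was the kinase gene *akt-1*, while the phosphoinositide 3-kinase gene *age-1* (0.38) rose and the kinase gene *sgk-1* (-0.49) fell. The rise of *age-1* was lost without A2 or W1.

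A list of 22 genes followed the subject of the study. It holds genes that the paper's text names and, beside them, *ppfr-1*, *lgg-2*, *sbt-1*, *snap-29*, *egl-3* and *ins-11*. All but *ins-11* could be tested, and of these 21 genes 5 were higher, 2 lower and 5 held. The 5 higher were *ppfr-1*, *ins-35*, *flp-1*, *lgg-2* and *hsp-6*, the 2 lower were *ubl-5* and *hif-1*, and the 5 held were *daf-16*, *atg-2*, *sbt-1*, *snap-29* and *hsp-60*. The other 9 passed neither test. *atfs-1*, the transcription factor of the UPRmt, stood at 59.5, 56.9 and 83.5 CPM in the deletion on azide, against 54.8, 57.5 and 55.9 CPM in wild type on water (log2 fold change 0.25, 95% interval -0.04 to 0.54). The homeodomain gene *dve-1* stood at 17.8, 19.1 and 28.2 CPM against 32.0, 22.2 and 27.5 CPM (-0.33, 95% interval -0.70 to 0.04), and the insulin receptor gene *daf-2* at 69.6, 86.3 and 96.8 CPM against 65.2, 75.0 and 66.0 CPM (0.29, 95% interval -0.02 to 0.61). The ranges of all 3 overlapped and all 3 intervals include 0. Those of *dve-1* and *daf-2* reach beyond 1.5-fold and that of *atfs-1* does not. The remaining undecided genes were *egl-3*, *unc-31*, *flp-2*, *nlp-52*, *ins-27* and *dct-1*. Few reads covered *nlp-52*, with 6, 7 and 6 in the deletion on azide and 20, 6 and 14 in wild type on water (log2 fold change -1.09). The libraries on which the calls of *hsp-6*, *hsp-60*, *ubl-5*, *hif-1* and *flp-1* rested are given with their pathways. Without A3, *dve-1*, *egl-3* and *daf-16* were called lower, and without W1 *dct-1* was called higher.

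**Figure D5:**
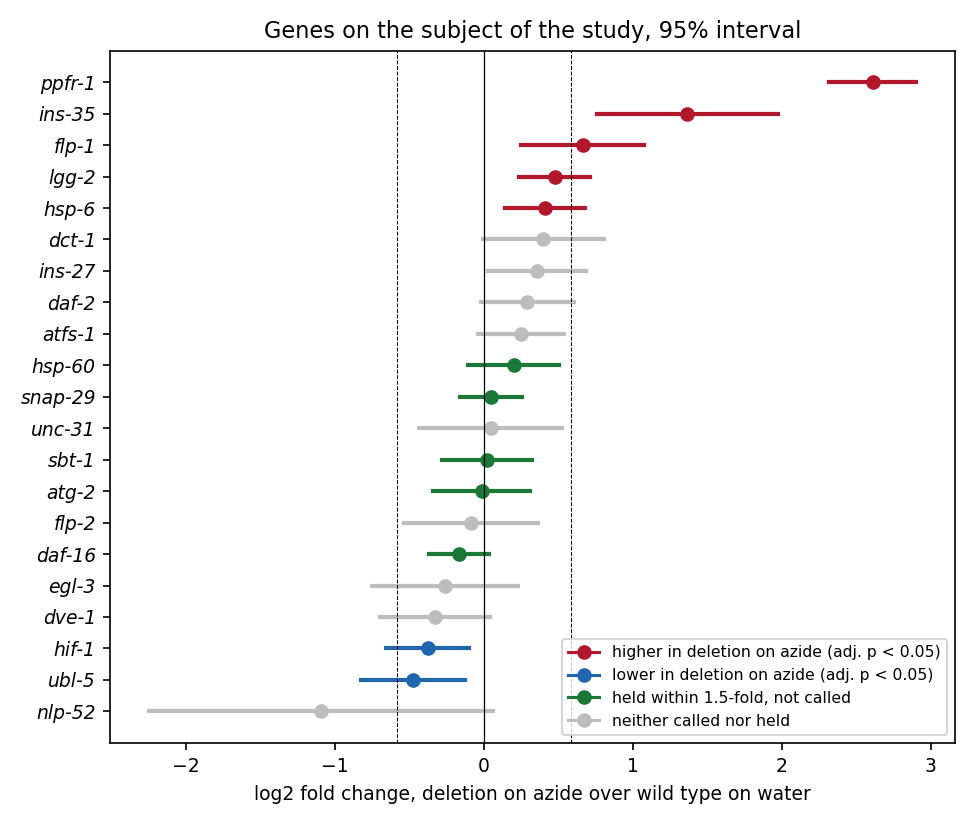
Log2 fold change with 95% interval (deletion on azide over wild type on water, n = 3 each) for the 21 tested genes of the list that followed the subject of the study, coloured by call. The interval of *ppfr-1* (2.32 to 2.90) stands apart, and those of the held genes lie within 1.5-fold of 0 on the TMM scale.

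Most of the largest changes fell on genes outside the lists, *hsp-16.41* excepted among the rises. Among genes of at least 5 CPM whose groups did not overlap, the 10 largest rises were *Y47H9C.1*, *fipr-24*, *W08E12.2*, *hsp-16.41*, *nspe-6*, *F20G2.5*, *K07A1.6*, *C33A12.19*, *W08E12.3* and *Y68A4A.13*. *Y47H9C.1*, on chromosome I from 11831025 to 11833166, stood at 29.2, 19.0 and 34.9 CPM in the deletion on azide, against 0.203, 0.0992 and 0.332 CPM in wild type on water (log2 fold change 6.98, SE 0.345, edgeR adjusted p = 3.98e-08), with means of 0.793 CPM in the deletion on water and 14.1 CPM in wild type on azide. *W08E12.2* stood at 15.7, 8.26 and 54.0 CPM against 0.76, 0 and 0.806 CPM (5.61, SE 0.979, edgeR adjusted p = 0.0026), with means of 2.85 CPM in the deletion on water and 1.04 CPM in wild type on azide. *Y47H9C.1* was high in every library on azide, whereas *W08E12.2* was highest in the treated deletion and there in A3. The 10 largest falls were *Y71G12B.18*, *D1014.6*, *BE0003N10.6*, *gly-1*, *D1014.7*, *cutl-7*, *H31G24.1*, *T05H10.3*, *dlhd-1* and *cut-3*. *Y71G12B.18*, on chromosome I from 1652916 to 1655333, had 2, 2 and 3 reads in the deletion on azide and 1028, 1071 and 799 reads in wild type on water, or 0.0998, 0.0879 and 0.154 CPM against 52.1, 53.1 and 37.9 CPM (-8.65, SE 0.295, edgeR adjusted p = 1.35e-09). The deletion on water averaged 83.5 CPM and wild type on azide 0.186 CPM. *BE0003N10.6* stood at 2.00, 2.06 and 1.64 CPM against 214, 187 and 145 CPM (-6.57, SE 0.269, edgeR adjusted p = 3.98e-08), with means of 334 CPM in the deletion on water and 2.42 CPM in wild type on azide. *D1014.6* and *D1014.7*, neighbours on the plus strand of chromosome V between 8118276 and 8123350, fell by 7.14 and 6.04 on the log2 scale and also stood below 1 CPM in both groups on azide. All 4 of these genes were thus low in every library on azide and high in every library on water. *cutl-7* and *cut-3*, which encode cuticlin-type matrix proteins, differed among the untreated libraries as well, *cut-3* with 1.70, 0.176 and 0.205 CPM in the deletion on azide against 25.6, 9.53 and 3.65 CPM in wild type on water.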

How the data were processed

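The authors trimmed reads with Cutadapt 1.9.1, aligned them with HISAT2 2.0.1 to WBcel235 and counted them per gene with HTSeq 0.6.1, as the methods and the submitters' processing notes state. The deposited table holds raw counts for 20212 genes, of which 19105 had a read, and these counts were used. The FPKM values that the authors deposited beside them, and their gene sizes (another column of the deposited table), were not used. The sources used here do not state the strand setting of the counting, so genes with exons under a gene of the opposite strand are uncertain, among those named *T10B5.3*, *col-132*, *nduf-6* and *tbh-1* with 10.4% to 23.5% of their exon bases shared.

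Counts were tested with edgeR 4.0.16 (limma 3.58.1, R 4.3.3): TMM, filterByExpr with a minimum count of 10 and total of 15, glmQLFit with robust estimation on all 12 libraries with 1 mean per group for the 4 groups, and the contrast of the *mir-71* deletion on azide minus wild type on water, two-sided, with Benjamini-Hochberg adjustment over all genes tested at 0.05. Held genes passed a pair of one-sided quasi-likelihood tests against a 1.5-fold change in either direction, adjusted likewise. With 3 biological replicates a group, p-values measure the spread between these libraries, and the spread is estimated over all 4 groups. No pair of replicates agreed within sampling noise. The methods were tested on simulated counts. The interval given for a ratio of reads covers counting error only.

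Alternatives were DESeq2 1.42.0 on 12 and on 6 libraries, other scalings, no filter, a fit of the 6 libraries, a replicate block, other thresholds and margins, and each of the 12 libraries left out in turn. The genes named are those of a list that followed the subject of the study, the 10 largest rises and falls of at least 5 CPM without overlap, the 10 most firmly held, and up to 3 rises, 3 falls and 3 held members of each gene list. The lists, by symbol, and the members were chosen with earlier results of these data known. DESeq2 on the 6 libraries and the unadjusted p were added after seeing the data. The result for 1 gene is not reported here.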

Additional observations from a re-analysis of the deposited data

How the results depend on the processing

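The counts of calls depended on the scaling, the spread estimate and the thresholds. DESeq2 size factors, upper-quartile factors, no filter on low counts and DESeq2 on all 12 libraries left the counts over all genes that they give within 1.5 times, though not those of every list. Centring on ribosomal protein genes gave 5250 higher, 712 lower and 1127 held genes, on neuron markers 1443, 769 and 0, and on body wall muscle markers 695, 1060 and 0. The 6 libraries alone gave 1081 higher and 1214 lower, an added log2 limit of 1 gave 800 and 686, and an unadjusted p gave 3192 higher. DESeq2 on the 6 libraries gave 1417 higher and 1692 lower. A 2-fold margin held 9329 genes and a margin of 5/4 held 0. Leaving out each of the 12 libraries gave 1218 to 2591 higher, 1328 to 2318 lower and 2431 to 3901 held genes. Replicate numbers share only a number between the groups: same-numbered libraries deviated together with r of -0.03, 0.17 and 0.11, and 2 of the 3 treated libraries correlated best with another number. A fit with the replicate block gave 1686 higher, 1708 lower and 3324 held. On the ribosomal scale the sign turned for *asp-3* (0.29), *C28H8.3* (0.32), *dpf-5* (0.34), *dyci-1* (0.32), *fat-2* (0.30), *kpc-1* (0.0227), *mrps-12* (0.0503), *nuo-1* (0.33), *pdi-6* (0.28), *pept-1* (0.31), *phy-2* (0.0118), *prdx-3* (0.27), *rpl-24.2* (0.34), *rpn-10* (0.0835) and *rpn-8* (0.0961), and the median of the ribosomal protein genes was 0.0158 there by construction. The cause of the other differences was not tested. Depth limits the low genes: below 10 CPM few could be called held.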

Other observations

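Families that meet food, microbes and foreign compounds had calls in both directions, counts to be read against 13.6% higher and 12.7% lower over all genes. Of 148 C-type lectin genes tested, which encode carbohydrate-binding proteins of the gut and epidermis, 24 were higher and 35 lower, with a median log2 fold change of -0.29 on the TMM scale that turned to 0.06 on the ribosomal scale. *clec-17* stood at 19.5, 12.6 and 22.4 CPM in the deletion on azide, against 0.962, 1.19 and 0.853 CPM in wild type on water (log2 fold change 4.17, SE 0.289, edgeR adjusted p = 7.49e-07), and *clec-210* at 1.90, 0.879 and 1.18 CPM against 22.4, 15.8 and 17.7 CPM (-3.82, SE 0.298, edgeR adjusted p = 1.63e-06). Neither overlapped between the groups. Of 60 cytochrome P450 genes 12 were higher (7 without W3) and 15 lower. *cyp-34A8* rose to 17.8, 17.7 and 20.6 CPM in the deletion on azide, against 4.41, 3.42 and 4.17 CPM in wild type on water (2.22, edgeR adjusted p = 9.17e-07), and *cyp-25A1* fell by 3.29 on the log2 scale. Of 62 UDP-glucuronosyltransferase genes 20 were higher and 9 lower, and of 38 glutathione transferase genes 11 were higher and 6 lower, among them *gst-27* at 46.7, 45.8 and 43.4 CPM in the deletion on azide against 107, 89.3 and 93.6 CPM in wild type on water (-1.09, edgeR adjusted p = 7.19e-06). The nuclear receptor gene *nhr-114* had 177, 175 and 181 CPM in the deletion on azide, against 424, 425 and 413 CPM in wild type on water (-1.25, SE 0.0772, edgeR adjusted p = 2.85e-07).

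Calls were spread over all chromosomes in unequal shares on the TMM scale. Chromosome V had 17.4% of its 2977 tested genes higher and 13.1% lower, chromosome X had 10.2% of 2157 higher and 18.4% lower, and chromosome III had 13.8% of 2307 higher, 9.67% lower and 34.2% held. Within 100 kb on either side of *ppfr-1*, 7 of 42 tested genes were higher (16.7%), 5 lower (11.9%) and 13 held (31.0%), close to the shares over all genes of 13.6%, 12.7% and 25.0%. Within 1000 kb on either side 64 of 424 were higher (15.1%), 38 lower (8.96%) and 135 held (31.8%).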
